A study of Mus musculus with 6 samples.

Results

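The 10 Polycomb genes described here, out of 55487 genes in the deposited table, encode core or accessory subunits of Polycomb repressive complexes 1 and 2. They are Ezh1, Ezh2, Eed, Suz12, Jarid2, Rnf2, Bmi1, Pcgf5, Cbx2 and Cbx7, found by gene symbol, and all of them were counted in every library. The list was chosen from the carnosine comparison of these same libraries with its counts and fold changes known, and Pcgf5 was singled out because its replicates disagreed. The differences between groups given for these genes therefore describe the libraries, and nothing is read from how many of the 10 passed a threshold.

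RNA was sequenced from long-term hematopoietic stem cells (LT-HSCs), which renew themselves and feed the whole of blood formation, sorted from bone marrow as Lineage- Sca-1+ c-Kit+ Flk2- CD34- cells. The donors were wild-type mice that received no irradiation and were given carnosine, a dipeptide found in muscle, or saline. Each treatment has 3 libraries, numbered 1 to 3. The sources used here do not give dose, duration, age, sex, the number of mice or any pooling, and nothing says that libraries of a group came from separate mice, so the p-values measure the spread between these libraries, which may be technical.

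Polycomb repressive complex 2 places methyl groups on lysine 27 of histone H3, with Ezh1 or Ezh2 as its enzyme and Eed and Suz12 as obligate partners. Polycomb repressive complex 1 ubiquitinates histone H2A through Rnf2 or Ring1, always paired with a PCGF protein such as Bmi1 or Pcgf5, and its canonical forms carry a CBX protein that binds the H3 mark. In hematopoietic stem cells these complexes are known for keeping developmental regulators and cell cycle inhibitors silent, and loss of Bmi1 is known to exhaust the stem cell pool in mice.

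The promoters of 3 members are shown first: Ezh2, which follows the cell cycle in many tissues, and Suz12 and Pcgf5, which had the widest spread between replicates. Each is a RefSeq window on GRCm38.p6, reaching from 250 bases before to 50 after an annotated start, written 5′ to 3′ on the gene's strand. Capitals mark E2F-type motifs, the kind bound by cell cycle transcription factors, and the letters searched on both strands were TTTGGCGC and TTTCCCGC, which do not overlap each other in these windows. The windows lie at chr6:47594981-47595280 (minus strand) for Ezh2, chr11:79992856-79993155 (plus strand) for Suz12 and chr19:36348079-36348378 (plus strand) for the first of 3 annotated starts of Pcgf5.
Ezh2 promoter: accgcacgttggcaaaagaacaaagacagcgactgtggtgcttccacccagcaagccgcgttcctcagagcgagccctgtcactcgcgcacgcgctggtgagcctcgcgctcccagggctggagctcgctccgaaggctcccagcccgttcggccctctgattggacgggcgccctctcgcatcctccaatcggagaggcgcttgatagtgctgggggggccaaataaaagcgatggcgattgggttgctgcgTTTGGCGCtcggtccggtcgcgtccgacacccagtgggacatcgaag
Suz12 promoter: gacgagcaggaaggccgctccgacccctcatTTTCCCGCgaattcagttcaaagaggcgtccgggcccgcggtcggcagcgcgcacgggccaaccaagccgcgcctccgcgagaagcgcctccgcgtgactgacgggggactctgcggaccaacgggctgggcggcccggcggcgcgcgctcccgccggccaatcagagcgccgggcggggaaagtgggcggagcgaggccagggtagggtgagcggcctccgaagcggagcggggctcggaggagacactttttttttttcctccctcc
Pcgf5 promoter: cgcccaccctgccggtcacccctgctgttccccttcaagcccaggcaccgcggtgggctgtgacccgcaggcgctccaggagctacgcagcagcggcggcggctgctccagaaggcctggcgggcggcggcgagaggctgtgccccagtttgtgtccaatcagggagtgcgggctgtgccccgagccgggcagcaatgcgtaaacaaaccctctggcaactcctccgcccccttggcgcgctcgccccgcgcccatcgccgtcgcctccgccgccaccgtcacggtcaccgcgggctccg
The Ezh2 window holds TTTGGCGC at position 254, counted from 1 at its 5′ end and so just past the start, and the Suz12 window holds TTTCCCGC at position 32. Neither motif was found in the windows of the other 7 members with an entry, the 3 Pcgf5 windows included, and Cbx2 has no window in the table. Of 32851 mouse windows 0.514% hold TTTGGCGC, 1.07% hold TTTCCCGC and 1.56% hold either, against 2 of the 12 windows of the members. The 12 windows have a median of 27 CpG dinucleotides (range 5 to 41) and a median GC content of 65.3%, against 7 and 52.7% over all windows. A match of letters is a description of the window and not a measured binding site.

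The libraries held 10442112 to 13251332 counts in the carnosine group and 10304539 to 13210166 in the saline group. Of 15298 genes kept by the filter on low counts, 1455 were higher and 1283 lower in carnosine LT-HSCs at an adjusted p under 0.05 (edgeR's quasi-likelihood test, Benjamini-Hochberg adjustment over all genes kept), which is 9.51% and 8.39% and together 17.9%. The median log2 fold change of all genes was 0.00. RNA of the stem cell genes was present. Summed over 10 markers it was 1109.8 to 1258 CPM (counts scaled to library size with edgeR's TMM factors) in carnosine libraries and 1119 to 1149 CPM in saline libraries. Kit was the largest part of that sum (mean 530 CPM with carnosine and 546 CPM with saline). Hlf stood at 361, 211 and 205 CPM in carnosine libraries, against 215, 209 and 222 CPM in saline libraries. RNA of Cd34 (mean 861 CPM with carnosine and 857 CPM with saline) and of Flt3, which encodes Flk2 (775 CPM with carnosine and 818 CPM with saline), was also present, although the gate was negative for both proteins. The LT-HSC genes Slamf1 (3.64 CPM with carnosine and 4.28 CPM with saline) and Hoxb5 (1.62 CPM with carnosine and 1.75 CPM with saline) were low.

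Neither H3 lysine 27 methyltransferase passed the threshold between groups. Ezh2 (ENSMUSG00000029687, GRCm38 chromosome 6, 47530139 to 47595341, minus strand), the more active enzyme and the one typical of dividing cells, stood at 150.3, 150.9 and 149.8 CPM in carnosine libraries, against 149, 141 and 137 CPM in saline libraries. The 3 carnosine values were nearly equal and all above the saline values, the nearest of which was 149 CPM. The log2 fold change, carnosine over saline, was 0.08 (SE 0.04, edgeR adjusted p = 0.199). Ezh1 (ENSMUSG00000006920, chromosome 11, 101191115 to 101226463, minus strand), its counterpart in slowly dividing cells, had 45.9, 50.8 and 55.0 CPM with carnosine and 55.3, 56.6 and 55.3 CPM with saline. All carnosine values lay below the saline values, carnosine library 3 by less than 1 CPM, and the log2 fold change was -0.14 (SE 0.07, edgeR adjusted p = 0.221). In bulk RNA such as this, a lower level per cell and fewer cells that make the transcript cannot be told apart.

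Because both enzymes occupy the same place in the complex, their ratio was also set out per length of merged exons. Ezh2 exceeded Ezh1 3.64, 3.31 and 3.03 times in the carnosine libraries, against 2.99, 2.78 and 2.76 times in the saline libraries. Every carnosine ratio was above every saline ratio, with means of 3.33 ± 0.306 with carnosine and 2.85 ± 0.129 with saline (SD, n = 3 each), and the lowest carnosine ratio was close to the highest saline ratio. The ratio is built from the same values as the 2 single genes and adds no independent evidence.

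Of the 2 obligate partners, Eed overlapped between groups and Suz12 split within 1 group. Eed (ENSMUSG00000030619, chromosome 7, 89954654 to 89980983, minus strand), which binds the methyl mark and stimulates the enzyme, had 71.9, 79.6 and 75.4 CPM in carnosine libraries and 75.4, 82.5 and 83.9 CPM in saline libraries. The groups overlapped, and the log2 fold change was -0.09 (SE 0.06, edgeR adjusted p = 0.325). Suz12 (ENSMUSG00000017548, chromosome 11, 79993106 to 80034123, plus strand), the scaffold that holds the complex together, had 126, 122 and 121 CPM in the carnosine libraries. Its saline libraries stood at 220.3, 225 and 113 CPM. Saline libraries 1 and 2 were high and close to each other, whereas saline library 3 lay below all carnosine libraries, so the groups overlapped. The log2 fold change was -0.60 (SE 0.23, edgeR adjusted p = 0.122). Without saline library 3, the only one that made the groups overlap, it was -0.86 with an adjusted p of 0.000108. With any other library left out the edgeR adjusted p was 0.213 to 0.300.

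Jarid2 (ENSMUSG00000038518, chromosome 13, 44729474 to 44921643, plus strand) is an accessory subunit that helps to bring the methyltransferase to chromatin and to activate it. It had 53.4, 51.7 and 53.7 CPM in carnosine libraries, against 62.6, 59.2 and 64.4 CPM in saline libraries. All carnosine values were lower than all saline values, and both groups were narrow (52.9 ± 1.04 CPM with carnosine and 62.1 ± 2.64 CPM with saline, SD, n = 3 each). The log2 fold change was -0.23 (SE 0.05, edgeR adjusted p = 0.0222). Leaving out 1 library lost the call in 5 of 6 cases (adjusted p 0.0552 to 0.0750), and it was kept only without saline library 2 (adjusted p = 0.0312). The call was also lost with DESeq2 (adjusted p = 0.0874), without the filter on low counts (adjusted p = 0.0669) and on log2(FPKM + 1) and log2(FPKM + 0.1) (limma adjusted p = 0.0689 and 0.0673).

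**Figure D1:**
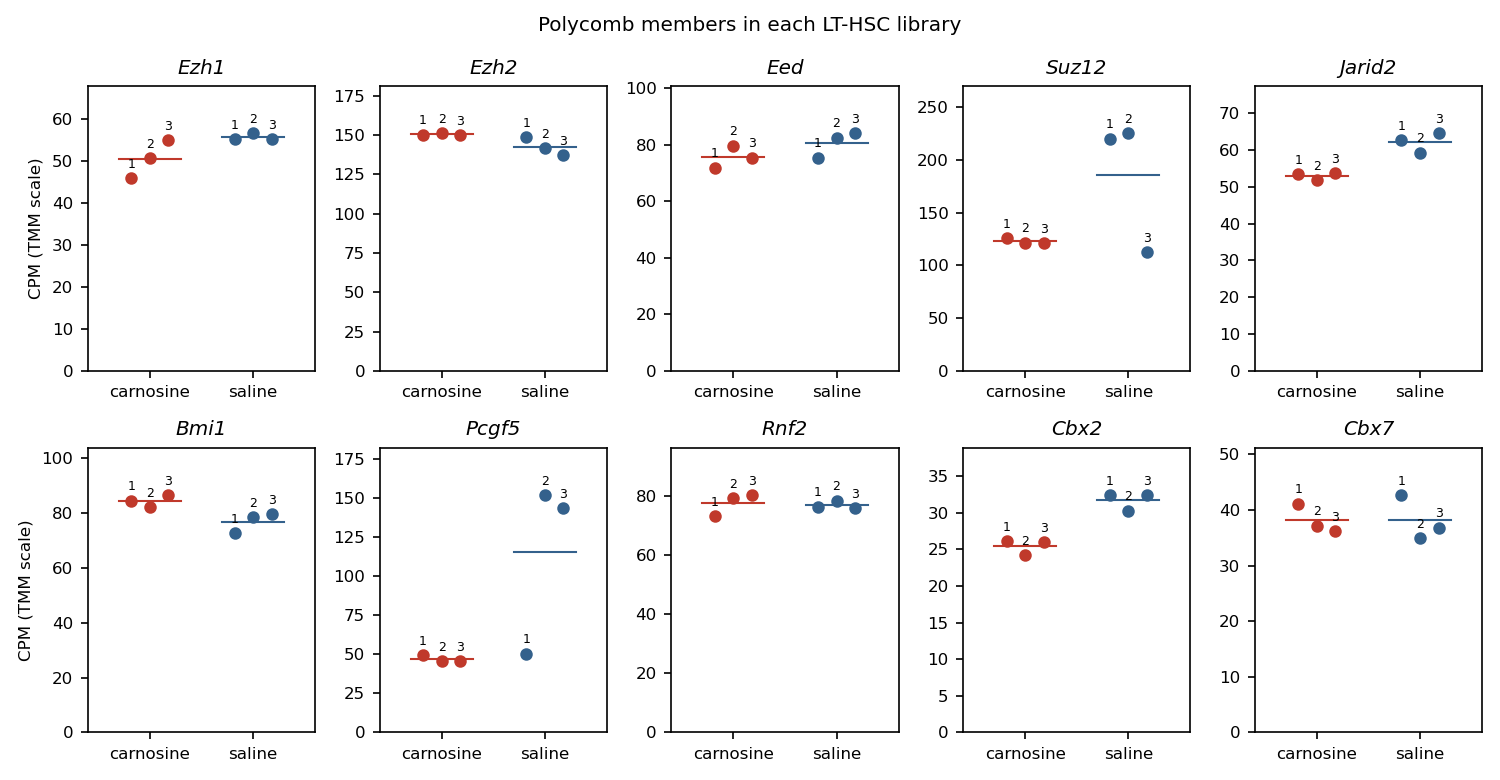
CPM (TMM scale, axes from 0) of each of the 10 Polycomb genes in the 3 carnosine (red) and 3 saline (blue) libraries, with the replicate number above each point and the group mean as a bar. Pcgf5 is at 152 and 143 CPM in saline libraries 2 and 3 and Suz12 at 220.3 and 225 CPM in saline libraries 1 and 2, while the remaining library of each saline trio sits beside the carnosine libraries.

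In the H2A ubiquitin ligase, the catalytic subunit overlapped between groups. Rnf2 (ENSMUSG00000026484, chromosome 1, 151458004 to 151500955, minus strand), also called RING1B, had 73.1, 79.3 and 80.3 CPM in carnosine libraries and 76.3, 78.3 and 75.8 CPM in saline libraries. Carnosine library 1 was the lowest of the 6 and carnosine libraries 2 and 3 the highest, and the log2 fold change was 0.01 (SE 0.05, edgeR adjusted p = 0.877).

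Bmi1 and Pcgf5 are alternative partners of Rnf2 and sort it into different complexes. Bmi1 (ENSMUSG00000026739, chromosome 2, 18677018 to 18686629, plus strand), the partner in canonical complexes, had 84.4, 82.1 and 86.6 CPM in carnosine libraries, against 72.5, 78.5 and 79.5 CPM in saline libraries. Every carnosine value was above every saline value, and the log2 fold change of 0.13 (SE 0.05) was not past the threshold (edgeR adjusted p = 0.108).

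Pcgf5 (ENSMUSG00000024805, chromosome 19, 36348309 to 36460970, plus strand), the partner in a variant complex without CBX proteins, had 49.4, 45.5 and 45.4 CPM in carnosine libraries. Its saline libraries stood at 50.2, 152 and 143 CPM. Saline library 1 was within 1 CPM of the highest carnosine library, and saline libraries 2 and 3 were about 3 times as high (highest over lowest saline library 3.02). The 4 low libraries held 473 to 599 counts and the 2 high ones 1564 and 1890, and the exact Poisson 95% intervals of saline library 1 (46.0 to 54.7 CPM) and saline library 3 (137 to 149.9 CPM) lie far apart. Group means were 46.8 ± 2.29 CPM with carnosine and 115 ± 56.4 CPM with saline (SD, n = 3 each).

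The log2 fold change of Pcgf5 was -1.30 (SE 0.36, edgeR adjusted p = 0.0463), the most negative of the 10. Without saline library 1 it was -1.66 (adjusted p = 5.58e-05), without saline library 2 it was -1.05 (adjusted p = 0.133) and without saline library 3 it was -1.11 (adjusted p = 0.129). Leaving out any carnosine library also ended the call (adjusted p 0.107 to 0.119). The call was absent as well with DESeq2 (adjusted p = 0.0530), limma-voom (0.115), limma on FPKM (0.116 and 0.114 with pseudocounts of 1 and 0.1), a correction for length and GC content (0.0512) and the replicate block described with the alternatives (0.0890). The gene length behind the deposited FPKM of Pcgf5 was the same in all 6 libraries, and annotated genes that overlap Pcgf5 held at most 31 counts in any library.

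**Figure D2:**
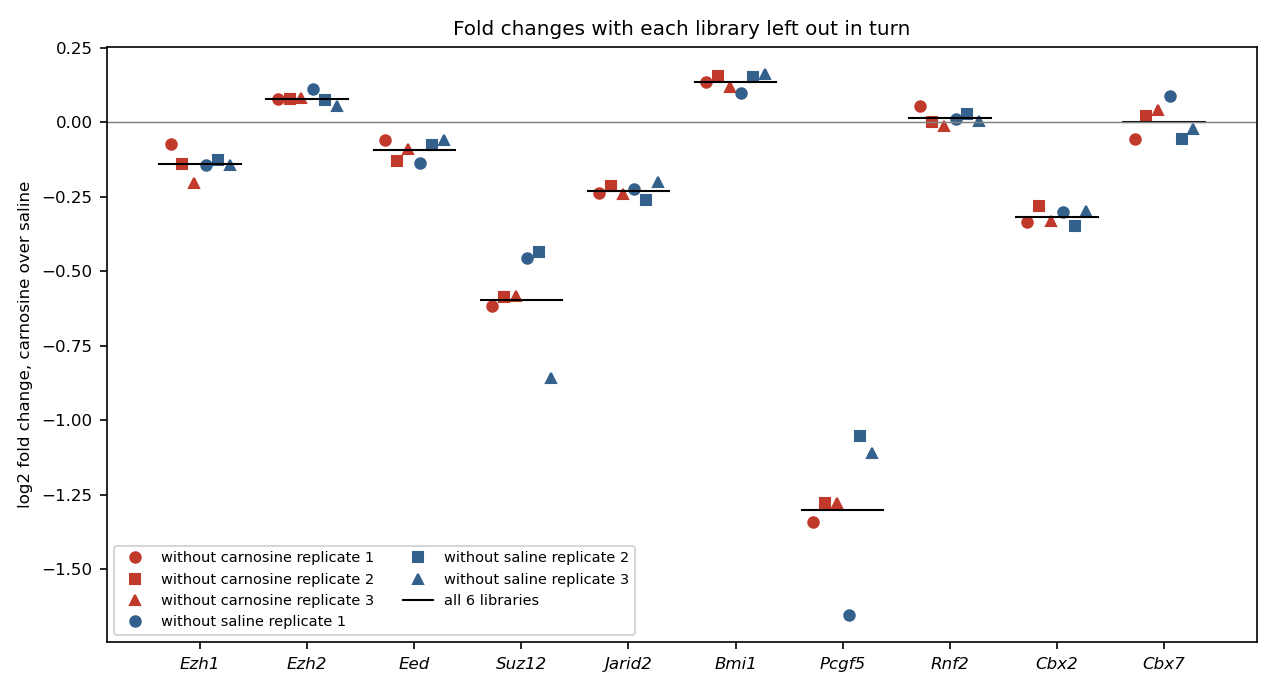
Log2 fold change, carnosine over saline, of each Polycomb gene from all 6 libraries (black bar) and with 1 library left out (red for a carnosine library, blue for a saline library, shape for the replicate). Pcgf5 runs between -1.66 and -1.05 and Suz12 between -0.86 and -0.43 over the libraries left out, while Cbx7 and Rnf2 fall on both sides of 0.

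Since Bmi1 and Pcgf5 share Rnf2, their ratio per length of merged exons was set out by library. Bmi1 exceeded Pcgf5 5.43, 5.74 and 6.06 times in carnosine libraries, against 4.59, 1.64 and 1.76 times in saline libraries. Saline library 1 was near the carnosine libraries, and saline libraries 2 and 3 were apart from the other 4. This ratio too is built from the values of the single genes and adds no independent evidence.

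The CBX proteins dock canonical complexes on the methyl mark. Cbx2 (ENSMUSG00000025577, chromosome 11, 119022962 to 119031270, plus strand) had 26.1, 24.2 and 26.0 CPM in carnosine libraries, against 32.4, 30.3 and 32.5 CPM in saline libraries. The groups did not overlap, and the log2 fold change was -0.32 (SE 0.07, edgeR adjusted p = 0.0173). The call was lost without carnosine library 2 (adjusted p = 0.0582), saline library 1 (0.0589) or saline library 3 (0.0564), and with DESeq2 (0.0644). Cbx7 (ENSMUSG00000053411, chromosome 15, 79915807 to 79971119, minus strand), known in mouse hematopoietic stem cells for favouring self-renewal, had 41.1, 37.2 and 36.2 CPM in carnosine libraries and 42.7, 35.0 and 36.8 CPM in saline libraries. Its groups overlapped fully, and the log2 fold change was 0.00 (SE 0.09, edgeR adjusted p = 0.998).

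Per length of merged exons the ratio of Cbx2 to Cbx7 was 0.968, 0.992 and 1.10 in carnosine libraries, against 1.16, 1.32 and 1.34 in saline libraries. The carnosine ratios were all lower, with means of 1.02 ± 0.0679 with carnosine and 1.27 ± 0.101 with saline (SD, n = 3 each). This ratio repeats the values of Cbx2 and Cbx7 and is not a separate result. Cbx7 overlaps Apobec3 and Rnf2 overlaps Trmt1l on the opposite strand, and whether the counting used the strand kept by the library kit is unknown here, so the counts of Cbx7 and Rnf2 are uncertain by the reads these pairs may share.

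Over the 10 genes, edgeR called 0 higher and 3 lower (Jarid2, Cbx2 and Pcgf5), beside 9.51% and 8.39% of all genes tested. Bmi1 (higher) and Suz12 (lower) passed only at an unadjusted edgeR p under 0.05, a threshold for which no share of all genes is given. DESeq2 called 0 of the 10 in either direction after adjustment, beside 10.1% of all genes. Further, the CPM ranges of the groups did not overlap for 6, beside 38.7% of all genes. The median log2 fold change was -0.12, beside 0.00 over all genes tested, and 6 of the 10 were below 0, beside 49.8% of all genes. These genes were named with this comparison known, so the counts are given without a reading.

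**Figure D3:**
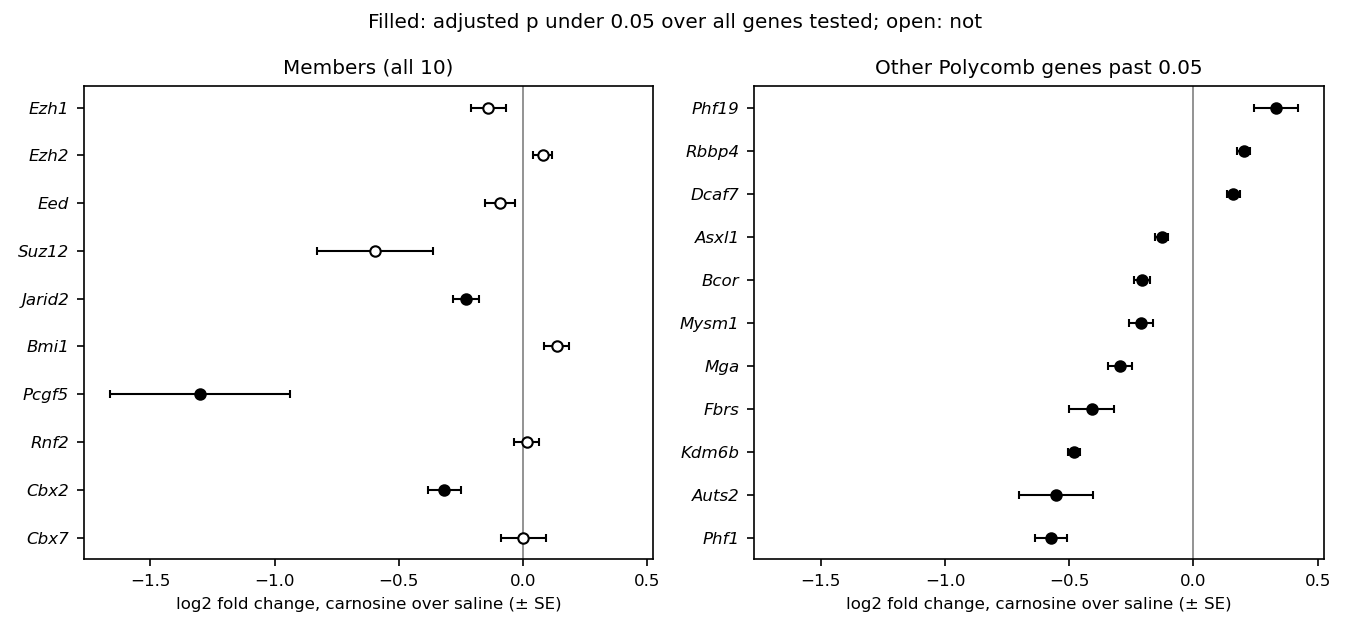
Log2 fold change, carnosine over saline, with its SE (edgeR, 6 libraries) for the 10 Polycomb genes (left) and for 11 other Polycomb genes past an adjusted p of 0.05 (right), with filled points past that threshold. The long bars of Pcgf5 (SE 0.36) and Suz12 (SE 0.23) stand apart from the other 8 members, whose SE runs from 0.04 to 0.09.

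The spread between replicates was set against all genes of at least 20 CPM in a group. The ratio of the highest to the lowest library had a median of 1.09 in both groups, over 8303 genes in the carnosine group and 8326 in the saline group, and was 1.5 or more for 3.71% of genes in the carnosine group and 3.77% in the saline group. In the carnosine group 0 of the 10 Polycomb genes reached 1.5, and the widest was Ezh1 (1.20). In the saline group 2 reached it, Pcgf5 and Suz12. Pcgf5 was singled out because its replicates disagreed, so its wide spread was known beforehand and its rank is only a description. In the saline group 24 genes (0.288%) had a ratio at least as large as that of Pcgf5, itself included. A ratio at least as large as that of Suz12 (1.998) was seen for 98 (1.18%), while the remaining 8 members lay between 1.02 and 1.22.

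The libraries that stood high were not the same for both genes. Saline library 2 was high for both, saline library 1 for Suz12 alone and saline library 3 for Pcgf5 alone. A further 3 Polycomb genes, named after their values were seen, also had libraries apart from their group. Phc3, a sterile alpha motif subunit of canonical complexes, stood at 90.6, 27.6 and 29.2 CPM in carnosine libraries, against 36.8, 32.0 and 37.2 CPM in saline libraries. Mtf2, a Polycomb-like subunit that brings the methyltransferase to CpG islands, stood at 74.0, 125 and 97.3 CPM in carnosine libraries, against 113, 85.8 and 88.9 CPM in saline libraries. Cbx6 stood at 95.1, 96.3 and 116 CPM in carnosine libraries, against 109, 100.5 and 176 CPM in saline libraries. With these, 2 of 39 other Polycomb genes of at least 20 CPM reached a ratio of 1.5 in the carnosine group, beside 3.71% of all such genes. In the saline group 1 of 39 reached it, beside 3.77% of all such genes. Differences in library preparation or between mice as sources of these steps were not tested.

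**Figure D4:**
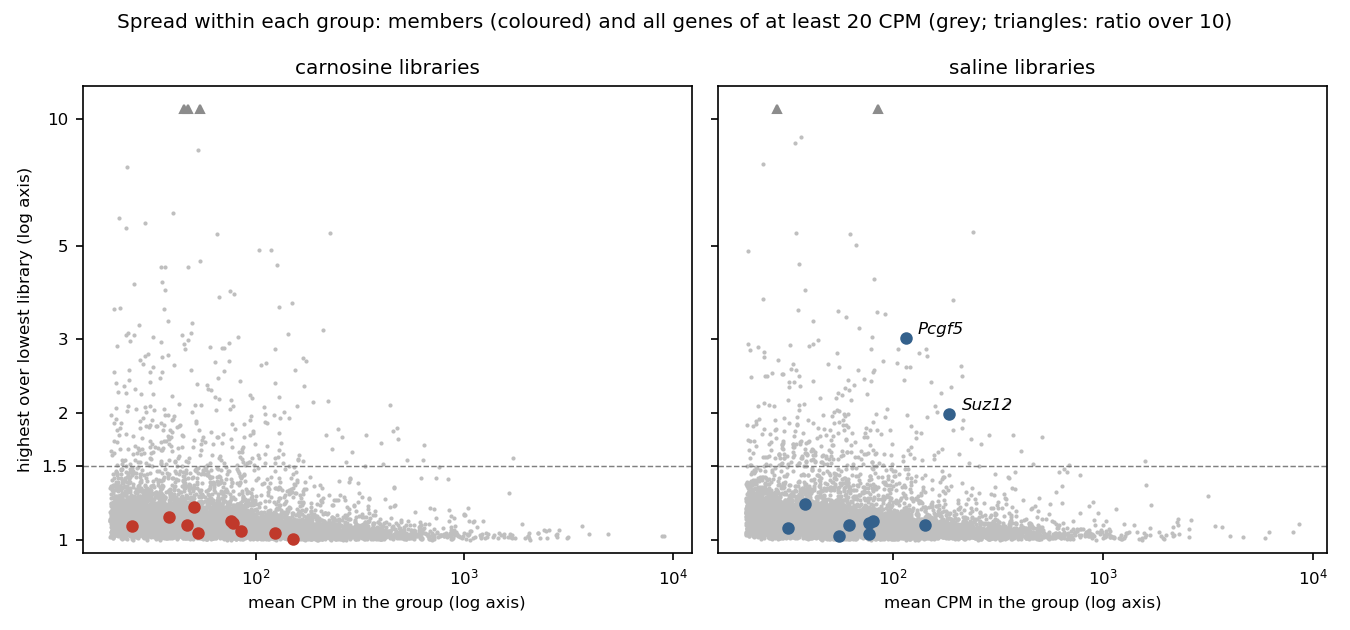
Highest over lowest library (log axis) against mean CPM (log axis) for all genes of at least 20 CPM (grey; triangles at the top stand for genes beyond 10) and for the 10 Polycomb genes (coloured), in carnosine libraries (left) and saline libraries (right). All 10 members lie under the dashed line at 1.5 in carnosine libraries, and Pcgf5 (3.02) and Suz12 (1.998) lie above it in saline libraries.

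Levels of different genes were compared per length. By the deposited FPKM averaged over all libraries the order was Suz12, Ezh2, Bmi1, Eed, Rnf2, Cbx2, Pcgf5, Ezh1, Jarid2 and Cbx7. Within each group the order differed from this. Ezh2 was in place 1 with carnosine and Suz12 in place 1 with saline, and Pcgf5 was in place 9 with carnosine and place 6 with saline. Suz12 averaged 15.1 ± 0.329 FPKM in carnosine libraries and 23.0 ± 7.87 FPKM in saline libraries, and Ezh2 averaged 16.5 ± 0.0630 FPKM with carnosine and 15.7 ± 0.671 FPKM with saline (SD, n = 3 each). The ranges over libraries overlapped for Suz12 (13.9 to 27.8 FPKM) and Ezh2 (15.1 to 16.6 FPKM), so their order is not resolved. Bmi1 (11.3 to 13.4 FPKM), Eed (10.4 to 12.1 FPKM) and Rnf2 (9.82 to 10.8 FPKM) followed, with ranges that overlap from each to the next. Cbx2 (5.41 to 7.27 FPKM) stood apart from Rnf2 above it, and it overlapped Pcgf5 (3.05 to 10.2 FPKM), which also overlapped Ezh1. Ezh1 (4.10 to 5.07 FPKM) did not overlap Jarid2 (3.09 to 3.86 FPKM), nor Jarid2 Cbx7 (2.47 to 3.02 FPKM).

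That order depends on the length used. For 97.5% of 14675 genes, the length implied by count and FPKM equalled the sum of all distinct annotated exons, overlapping ones counted repeatedly, within 1 base, and it equalled the merged exons for 22.0%. Among the members this length was from 1.05 (Cbx2) to 2.18 (Cbx7) times that of the merged exons. Counted per kilobase of merged exons, an alternative added after seeing the data, 5 of the 10 genes changed place in the order over all libraries. Ezh1 moved up from place 8 to place 6 there, from 7 to 6 with carnosine alone and from 8 to 7 with saline alone. Cbx7 then averaged 5.88 in carnosine and 5.88 in saline libraries, and Cbx2 averaged 5.98 with carnosine and 7.45 with saline (CPM per kilobase of merged exons), although the deposited FPKM of Cbx7 was 2.69 with carnosine and 2.70 with saline and that of Cbx2 was 5.68 with carnosine and 7.10 with saline.

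**Figure D5:**
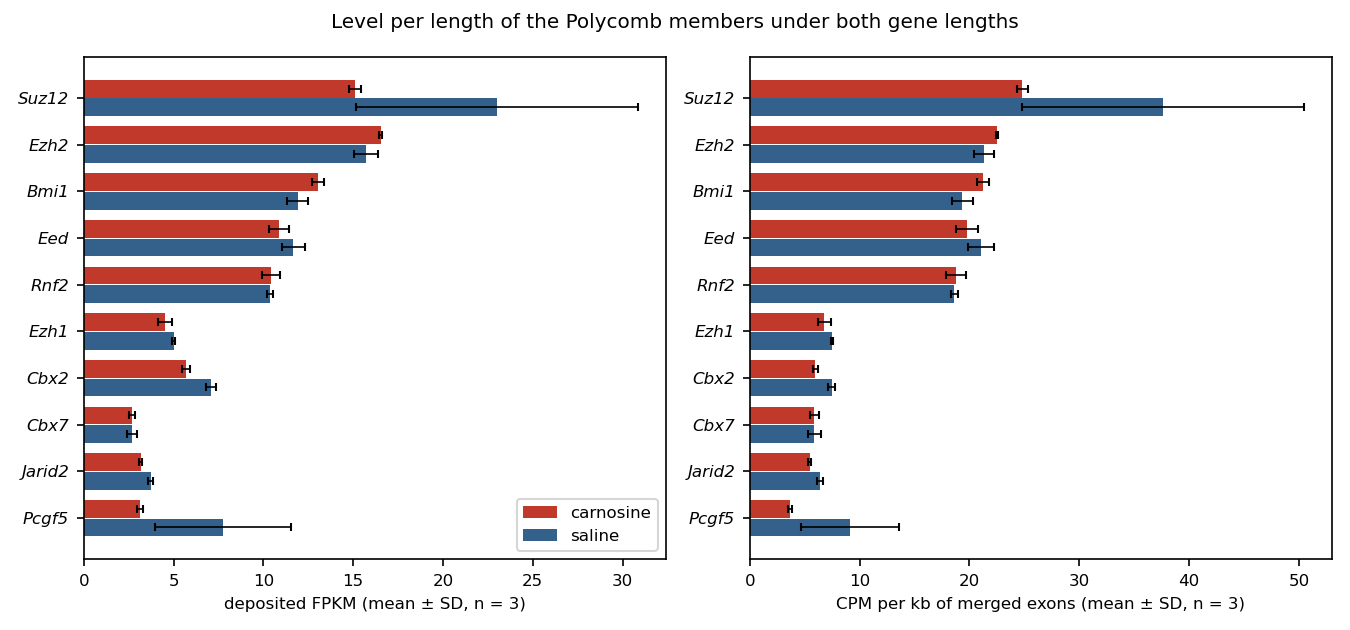
Mean level per length of each Polycomb gene in carnosine (red, upper bar) and saline (blue, lower bar) libraries with SD (n = 3 each), as deposited FPKM (left) and as CPM per kilobase of merged exons (right), with axes from 0. Genes are ordered by the carnosine mean of the right panel, where Cbx7 and Cbx2 are close (5.88 and 5.98) although their FPKM differ (2.69 and 5.68).

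Within families the members were set beside their paralogs by FPKM. Among PCGF genes Bmi1 was highest, at 13.0 ± 0.341 FPKM in carnosine libraries and 11.9 ± 0.570 FPKM in saline libraries (SD, n = 3 each). Pcgf5 averaged 3.14 FPKM in carnosine libraries, against 4.33 FPKM for Pcgf3, 3.28 for Pcgf6, 2.73 for Pcgf2 and 1.93 for Pcgf1. In saline libraries Pcgf5 averaged 7.75 ± 3.79 FPKM, against 4.40 FPKM for Pcgf3, 3.32 for Pcgf6, 2.75 for Pcgf2 and 2.07 for Pcgf1. Rnf2 averaged 10.4 FPKM in both carnosine and saline libraries, and its paralog Ring1 had 9.36 FPKM with carnosine and 10.4 FPKM with saline. Beside Cbx2 and Cbx7, Cbx6 had 5.40 FPKM with carnosine and 6.79 FPKM with saline, and Cbx8 had 1.98 FPKM with carnosine and 2.50 FPKM with saline. These orders too depend on the length used. Per kilobase of merged exons Cbx6 had 9.66 CPM with carnosine and 12.1 CPM with saline, above Cbx2 in both groups, where by FPKM it was just below Cbx2. On the same scale Pcgf5 had 3.70 CPM with carnosine, below Pcgf2 at 4.09 CPM, where by FPKM it was above Pcgf2.

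Profiles over the 6 libraries were compared by Pearson's r of log2 CPM, as a description over libraries that share depth and treatment. Jarid2 and Cbx2 were most alike among the members (r = 0.99), both being lower in all carnosine libraries. Eed was the member most like Pcgf5 (r = 0.81), and the best match of each other member had an r of at most 0.62. Among 5356 genes whose expression was at least close to that of Pcgf5, the 5 with the highest r were Psmd8, Rela, Maml3, Huwe1 and Ddx5 (r = 0.97, 0.97, 0.97, 0.96 and 0.96), and 55 had an r over 0.9. Their steps were small. Rela, a subunit of NF-kappaB, had 159, 161 and 152 CPM in carnosine libraries, against 165, 191 and 192 CPM in saline libraries, and Ddx5, an RNA helicase, had 2038, 2029 and 1997 CPM in carnosine libraries, against 2125, 2305 and 2341 CPM in saline libraries.

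Among 45 other Polycomb genes that could be tested, of 47 listed, 3 rose and 8 fell in carnosine LT-HSCs, beside 9.51% and 8.39% of all genes, with a median log2 fold change of -0.08. Groups did not overlap for 23 of the 45, beside 38.7% of all genes. The list was written with earlier results of these data known. Of 8 tested partners of complex 2, Rbbp4, a histone-binding subunit, rose (367, 371 and 380.2 CPM with carnosine, against 326, 321 and 325 CPM with saline, log2 fold change 0.20, adjusted p = 0.00203). Among the Polycomb-like subunits Mtf2 did not pass (0.04, adjusted p = 0.906). Phf19 rose (0.33, adjusted p = 0.0396), a call that was lost with DESeq2, with the replicate block, on both FPKM scales and in 5 of 6 cases with 1 library left out, all but that without carnosine library 1. Phf1 fell, at 27.2, 25.9 and 25.8 CPM with carnosine, against 40.6, 40.0 and 36.9 CPM with saline (-0.57, adjusted p = 0.00132). By FPKM the highest of these partners was Rbbp7, which was not past the threshold (0.20, adjusted p = 0.101).

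Of 5 other RING and PCGF genes 0 rose and 0 fell with edgeR, beside 9.51% and 8.39% of all genes. DESeq2 also called 0 of them in either direction, beside 10.1% of all genes. Ring1, the highest of them by FPKM, was alone in being lower at an unadjusted edgeR p under 0.05 (log2 fold change -0.15, adjusted p = 0.0720). No share of all genes is given for that threshold. Of 8 other CBX, PHC and related genes 0 rose and 0 fell with edgeR or DESeq2, beside the same shares of all genes. Cbx8 alone was lower at the unadjusted threshold (-0.33, adjusted p = 0.0596), again without a share of all genes. Phc1, the highest of these by FPKM, was at 0.01 (adjusted p = 0.911). Of 13 partners of variant complexes 1 rose and 4 fell, beside 9.51% and 8.39% of all genes. Dcaf7, a WD40 protein and the highest of them by FPKM, rose (0.16, adjusted p = 0.00705). Bcor, a subunit of Pcgf1 complexes along with Kdm2b, fell (-0.21, adjusted p = 0.00514), as did Mga, the DNA-binding subunit of Pcgf6 complexes (-0.30, adjusted p = 0.00693). Auts2 (-0.55, adjusted p = 0.0423) and Fbrs (-0.41, adjusted p = 0.0213), known as partners in Pcgf3 and Pcgf5 complexes, also fell. The call of Auts2 was lost with DESeq2, without the filter on low counts, on both FPKM scales, with the length and GC offset and in 5 of 6 cases with 1 library left out, all but that without carnosine library 1. The call of Fbrs was lost without saline library 1 or 3, and that of Dcaf7 with DESeq2. Rbbp4, Phf1, Bcor, Mga and Kdm6b were called in each of the 17 alternatives.

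Of 9 tested genes of H2A deubiquitination 2 fell, beside 8.39% of all genes. They were Asxl1, the cofactor of the deubiquitinase Bap1 (-0.13, adjusted p = 0.0175), and Mysm1, a deubiquitinase needed for mouse hematopoietic stem cells (-0.21, adjusted p = 0.0228). Both calls were lost with DESeq2, without the filter on low counts and with the replicate block. With 1 library left out the call of Asxl1 was lost in 5 of 6 cases, all but that without carnosine library 1, and that of Mysm1 in 4 of 6, all but those without carnosine library 1 or saline library 3. Mysm1 was also not called on either FPKM scale or with the length and GC offset. Of the 2 demethylases of H3 lysine 27, Kdm6b fell, at 697, 682 and 709 CPM with carnosine, against 993, 959 and 962 CPM with saline (-0.48, adjusted p = 2.46e-05), and Kdm6a did not pass (-0.23, adjusted p = 0.232). Kdm6b is also known to be induced in stimulated macrophages.

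Of 12 genes that Polycomb complexes are known to silence in blood or other tissues, 4 had enough counts to be tested. A count of 0 allows up to 3 counts, which is 0.227 to 0.289 CPM in carnosine libraries and 0.227 to 0.291 CPM in saline libraries, a limit that covers counting error only. Cdkn2b had 0 counts in all 6 libraries, and Cdkn2a, the cell cycle inhibitor locus that rises in Bmi1-deficient stem cells, had 1, 0 and 0 counts with carnosine and 0, 0 and 2 with saline. Gata4, Pax6, Sox1 and Wt1 had at most 5 counts in any library, Lin28b had 4 to 10 counts with carnosine and 5 to 8 with saline, and Gata6 had 5, 6 and 16 with carnosine and 3, 2 and 9 with saline. Of the 4 tested genes, 1 fell in carnosine LT-HSCs, beside 8.39% of all genes. That was Ebf1, a B-lineage transcription factor, at 3.65, 2.21 and 3.79 CPM with carnosine, against 5.20, 6.70 and 5.38 CPM with saline (log2 fold change -0.82, adjusted p = 0.0420). That call was lost with any 1 library left out, with DESeq2, with the replicate block and on both FPKM scales (adjusted p 0.0534 to 0.119 over these fits). Hmga2 (-0.17, adjusted p = 0.0965), Pax5 (-0.35, adjusted p = 0.193) and Cdkn1c (0.08, adjusted p = 0.768) did not pass.

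Ezh2 is known to follow proliferation, so proliferation genes are given beside it. Of 20 such genes 15 rose and 0 fell in carnosine LT-HSCs with edgeR, beside 9.51% higher and 8.39% lower of all genes tested. Their sum was 5517 to 5556 CPM with carnosine, against 4669 to 4719 CPM with saline, and their median log2 fold change was 0.24. Ezh2 moved by 0.08 on the same scale. Some markers of other cells also differed between the groups, and several sums rest mainly on 1 gene. Their calls stand beside the same 9.51% higher and 8.39% lower of all genes tested. Summed over their lists, plasma cell markers had 395 to 652 CPM with carnosine and 184 to 270.1 CPM with saline, and 3 of 5 tested rose and 1 fell. Jchain was the largest part of that sum (296, 536 and 537 CPM with carnosine, against 157, 89.7 and 161 CPM with saline). Erythroid markers had 281 to 287 CPM with carnosine and 174 to 195 CPM with saline (4 of 8 rose). Tfrc was the largest part of the erythroid sum (mean 137 CPM with carnosine and 126 CPM with saline) and was not called (edgeR adjusted p = 0.137). Neutrophil markers had 451 to 468 CPM with carnosine and 716 to 729 CPM with saline (3 of 7 fell). Mpo made up most of the neutrophil sum (mean 306 CPM with carnosine and 516 CPM with saline). Monocyte markers had 72.3 to 78.5 CPM with carnosine and 108 to 123 CPM with saline (2 of 5 fell), and mast cell and basophil markers had 15.5 to 16.9 CPM with carnosine and 30.6 to 33.7 CPM with saline (2 of 3 fell). B-lineage markers had 40.0 to 44.3 CPM with carnosine and 42.6 to 49.4 CPM with saline (2 of 7 fell), and T and NK markers had 72.3 to 78.2 CPM with carnosine and 81.1 to 83.0 CPM with saline (0 of 3 tested called). Nkg7 made up most of the T and NK sum (74.3, 74.2 and 69.2 CPM with carnosine, against 79.0, 79.9 and 76.9 CPM with saline). Nkg7 alone of these was lower at an unadjusted edgeR p under 0.05, a threshold for which no share of all genes is given. Megakaryocyte markers had 89.4 to 95.6 CPM with carnosine and 92.6 to 97.5 CPM with saline (1 of 4 fell), and stromal and endothelial markers had 114 to 118 CPM with carnosine and 125 to 128 CPM with saline (1 of 5 rose and 1 fell). Itga2b made up most of the megakaryocyte sum (mean 64.6 CPM with carnosine and 65.4 CPM with saline). Pecam1 made up most of the stromal and endothelial sum (mean 102 CPM with carnosine and 117 CPM with saline). The mature-cell markers Ly6g (neutrophils), Cd3e (T cells) and Ms4a1 (B cells) each averaged under 1 CPM in both groups. The part of proliferation or of other cells in the differences of the Polycomb genes was not tested.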

How the data were processed

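The authors deposited 1 table with a raw count and an FPKM value per gene and library, per the file headers. The count columns are whole numbers with different totals. The deposited FPKM (values scaled to length and library size) were used for levels between genes and as an alternative. Tools named in the submitters' processing notes, without roles, are HISAT2, StringTie, edgeR and CASAVA 1.8, with the build GRCm38. Per the labels' protocols the libraries were poly-A selected, stranded and paired-end, from RNA with an integrity number above 7.0. Annotation release, strand setting and treatment of multi-mapped reads were not stated there. All rows name a gene, and no column was left unmapped (0).

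Counts were scaled by TMM, filtered with filterByExpr (15298 genes kept) and tested two-sided, carnosine over saline, by quasi-likelihood in edgeR 4.0.16 (R 4.3.3), with p-values adjusted after Benjamini-Hochberg across every gene kept and called under 0.05. The SE is the log2 fold change divided by the square root of F. The script was tested on simulated data. Libraries of a group differed by 5.19 to 6.34 times the sampling noise (chi-square per degree of freedom), against 15.0 to 17.7 times between groups, so none is a duplicate. Each of the 10 genes is backed by 252 counts or more in each library; Poisson intervals cover counting error only.

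The members and all lists were chosen with earlier results of these data known. All members are named, then other Polycomb genes past the threshold, the highest of each role by FPKM, all targets with a count, and the 5 genes most like Pcgf5 in log2 CPM, among genes whose average log2 CPM reached that of Pcgf5 minus 1, predicted genes and pseudogenes left out. Lengths and neighbouring genes come from GENCODE M21, in which all 10 loci have the deposited start and end, and promoters come from RefSeq (9 of 10 members matched). Alternatives were DESeq2 1.42.0, limma 3.58.1 (voom, and trend on log2(FPKM + 1) and log2(FPKM + 0.1)), other scalings and filters, a replicate block, an offset for length and GC content, and leaving out each library. Proteins were not compared, and 1 further item is not reported here.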

Additional observations from a re-analysis of the deposited data

How the results depend on the processing

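Of all genes, 2738 were called with all libraries, against 1548 with DESeq2, 1756 with the replicate block and 1753 to 1892 with 1 library left out. The length and GC offset called more, 2999, of which 2275 were shared with the 2738. Of the 10 Polycomb genes 3 were called, against 0 with DESeq2, 1 on log2(FPKM + 1), 1 on log2(FPKM + 0.1), 2 with the replicate block and 0 to 2 with 1 library left out. Of the other Polycomb genes 11 were called, against 6 with DESeq2, 8 with the block and 7 to 11 with 1 left out. Upper quartile scaling called 13 of these. The causes of these differences were not tested, and the fits with 1 library left out also had fewer libraries. Over all genes kept, deviations of same-numbered libraries from their group means had r = -0.05, -0.07 and 0.02. These values cannot tell whether same-numbered libraries were handled together, which the labels do not state. Cbx7, at 0.00 (log2), turned to -0.00240 (relative log expression), -0.0146 (upper quartile), -0.00585 (totals only), -0.000473 (1 CPM in 3 libraries), -0.00228 (DESeq2), -0.00251 and -0.00263 (FPKM with 1 and 0.1 added), and ran between -0.0580 and 0.0889 with 1 library left out. Rnf2 turned to -0.00124 (upper quartile) and ran between -0.0117 and 0.0542. The other 8 Polycomb genes kept their sign in all 17 alternatives. Of the 4 with a call in any fit, Cbx2 was called in 13 of the 17, Jarid2 in 8, Pcgf5 in 6 and Suz12 in 1, without saline library 3. The order by FPKM changed in 5 places with merged exons and in 2 without saline library 2 or 3, between 0 and 2 places over the libraries left out. The lowest count behind any of the 10 genes in any library was 252.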
